A study of Mus musculus with 8 samples.

Results

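The melanocortin system was described here in whole mammary tumors, starting from the agouti gene, whose symbol in mouse is a. The gene a was picked because its signal was higher in tumors in which Mmp14 had been targeted. The other genes were chosen by family and function, namely its paralog Agrp, the receptors Mc1r, Mc3r, Mc4r and Mc5r, the accessory genes Atrn, Atrnl1 and Mgrn1, and Pomc, the precursor of the receptors' peptide agonists. Of these 10 genes, 9 had a row with 1 gene symbol in the platform annotation, each a single row, out of 22180 genes with such a row. Agrp was not analysed here.

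The series profiled 8 tumors on Affymetrix mouse gene arrays, 1 array per tumor. All 8 came from mice aged 3 to 4 months on a congenic FVB/NJ background that carried the MMTV-PyMT transgene, which expresses polyoma middle T antigen under the mouse mammary tumor virus promoter, and floxed Mmp14 alleles (f/f). In 4 of them an MMTV-Cre transgene, driven by the same viral promoter and used to delete floxed genes in mammary epithelium, was present as well (cKO). The other 4 were littermates without Cre, which the labels call wild type (WT). The groups therefore differ in Cre as well as in Mmp14, and the tumors hold stroma besides carcinoma cells, so that fewer cells of a type and less RNA per cell cannot be told apart.

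Agouti is a secreted protein that binds melanocortin receptors and blocks signalling by alpha-melanocyte-stimulating hormone, a peptide cut from the Pomc product. In skin it is made by dermal cells of the hair follicle and acts through Mc1r on pigment cells, which then switch from black to yellow pigment. Mutations that turn a on in tissues where it is normally silent give mice a yellow coat and obesity, the latter through Mc4r in the brain, which Agrp blocks in the same way. Atrn, which encodes attractin, and Mgrn1, a ubiquitin ligase, are needed for the action of agouti on the coat, and Atrnl1 encodes a relative of attractin. FVB/NJ mice are albino.

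The promoter windows of a, of its chromosomal neighbour Raly and of its receptor gene Mc1r are given because the signals below are read for these genes. They run from 250 bases before to 50 bases after an annotated start in RefSeq on GRCm38.p6, the genome of C57BL/6J, a nonagouti strain, and were not read from these tumors. The table held 1 window for each, at chr2:155013320-155013619 for a, chr2:154790860-154791159 for Raly and chr8:123406832-123407131 for Mc1r, all on the plus strand. Capitals mark matches on either strand to 6 motifs. These are TATAAA as the core of a promoter element near the start, the box known as CCAAT, the GC box written GGGCGG, the E-box with the letters CACGTG, its variant reading CATGTG, and the element half-site that answers cAMP, searched as TGACG.
a: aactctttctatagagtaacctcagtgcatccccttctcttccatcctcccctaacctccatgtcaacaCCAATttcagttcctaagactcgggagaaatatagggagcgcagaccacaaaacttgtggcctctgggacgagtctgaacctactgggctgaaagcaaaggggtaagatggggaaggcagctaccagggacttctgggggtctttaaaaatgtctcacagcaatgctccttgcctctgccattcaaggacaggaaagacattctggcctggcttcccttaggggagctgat
Raly: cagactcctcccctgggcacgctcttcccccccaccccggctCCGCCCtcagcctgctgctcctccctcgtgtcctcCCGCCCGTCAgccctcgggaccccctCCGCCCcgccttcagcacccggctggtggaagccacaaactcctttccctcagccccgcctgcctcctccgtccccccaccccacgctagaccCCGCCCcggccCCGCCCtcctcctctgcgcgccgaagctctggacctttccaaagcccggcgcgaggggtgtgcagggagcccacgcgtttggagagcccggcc
Mc1r: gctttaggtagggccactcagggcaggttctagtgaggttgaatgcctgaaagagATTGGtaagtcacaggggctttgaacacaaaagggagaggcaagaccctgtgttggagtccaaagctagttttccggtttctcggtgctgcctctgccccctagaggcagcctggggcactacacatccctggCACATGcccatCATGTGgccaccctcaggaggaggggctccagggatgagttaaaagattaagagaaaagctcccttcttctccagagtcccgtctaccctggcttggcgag

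The window of a held 3 CG dinucleotides, that of Mc1r 4 and that of Raly 25, with a median of 7 over all 32851 windows in the table. In a the only match was CCAAT, 181 bases before the start, a motif found in 37.4% of all windows. In Raly there were 5 matches to GGGCGG, found in 35.7% of all windows, and 1 to TGACG (20.8%), which overlaps one of the 5 by a single base. Mc1r had 1 match to CCAAT and 2 to CATGTG (14.2%), the E-box form known to be bound by the pigment cell factor MITF, at 62 and 51 bases before the start. TATAAA (13.6% of windows) and CACGTG (7.15%) had no match in these 3 windows.

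The array values are log2 signals, so that a difference of 1 is a doubling of signal. No detection call was used here, and rows of odorant and vomeronasal receptors, genes that mammary tumors are not known to transcribe, served as a reference for dim rows. Over 1405 such rows the 95th percentile lay between 3.48 and 3.59 on the 8 arrays, and a signal below it is called not above the dim reference. The targeted gene Mmp14 had log2 signals of 8.86, 9.12, 9.31 and 9.17 in WT tumors 1 to 4 and of 7.98, 7.74, 7.44 and 7.72 in cKO tumors 1 to 4. All 4 cKO tumors lay below all 4 WT tumors, the direction that the labels imply. Mammary epithelial markers were present in every tumor, with all 7 measured genes of that list above the dim reference on all 8 arrays.

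The agouti gene a (row 17378287) had log2 signals of 3.27, 3.59, 3.76 and 4.08 in WT tumors 1 to 4. In cKO tumors 1 to 4 it stood at 6.69, 5.91, 7.52 and 6.73. The lowest cKO tumor lay 1.83 above the highest WT tumor. WT tumor 1 was not above the dim reference of its array, and the other 3 WT tumors were above theirs by less than 1, so that the WT signal was close to the dim reference. The group means were 3.68 ± 0.34 for WT tumors and 6.71 ± 0.66 for cKO tumors (SD, n = 4 each), a difference of 3.04 in log2 signal. As the gene was chosen for this difference, no test is given.

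Within the cKO group the signal of a spanned 1.61, from cKO 2 to cKO 3, and within the WT group 0.81. The tumor with the highest a signal, cKO 3, also had the lowest Mmp14 signal of the 8, while the tumor with the lowest a signal in its group, cKO 2, was not the one with the highest Mmp14. The difference of a was 2.87 within array numbers 1 to 4 and 3.20 within array numbers 5 to 8, with 2 tumors per group in each.

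**Figure D1:**
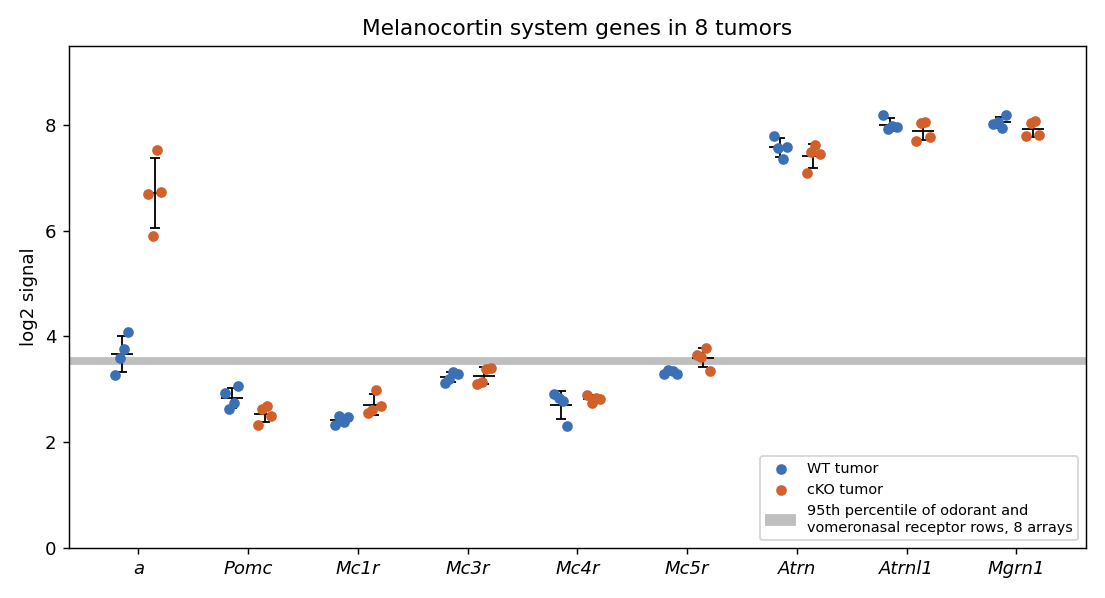
Log2 signal (y axis) of the 9 measured genes in 4 WT (blue) and 4 cKO (orange) tumors, with points for tumors and bars for the mean ± SD, and a grey band for the 95th percentile of odorant and vomeronasal receptor rows on the 8 arrays. The gene a separates the groups, Pomc, Mc1r, Mc3r and Mc4r lie below the band in all 8 tumors, and Atrn, Atrnl1 and Mgrn1 lie above it in all 8.

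None of the 8 other measured members passed limma's adjusted p of 0.05, where 2 of all 23521 rows with 1 symbol (0.0085%) did. With the replicate number as a block 0 rows passed, and with the array numbers 1 to 4 and 5 to 8 as a block 1 row did. Of the 8 members, 4 were higher and 4 lower in cKO, with differences from −0.30 to 0.28 and a median of −0.05, where the median over all tested rows was 0.02. At an unadjusted p below 0.05 there were 3 of the 8, Mc5r, Mc1r and Pomc, against 9.68% of all rows. Of these, Mc1r and Pomc were not above the dim reference in any tumor, and Mc5r was above it in 3 cKO tumors. The groups did not overlap in 1 of the 8, Mc1r, against 5.42% of all rows. The 95% confidence intervals of the 8 differences lay between −0.57 and 0.53, so changes of log2 signal of the size seen in a fall outside them. On dim rows, however, a change of RNA may give a smaller change of signal.

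Pomc, the source of the agonists that agouti competes with, had log2 signals of 2.92, 2.62, 2.73 and 3.06 in WT tumors 1 to 4 and of 2.33, 2.62, 2.69 and 2.49 in cKO tumors 1 to 4. No tumor was above the dim reference, and the groups overlapped. The difference was −0.30 (SE 0.12), with a limma adjusted p of 0.484. The enzymes that cut and finish the peptides were measured beside it, 6 of the 7 genes listed. None passed the threshold, 4 were higher and 2 lower, and the median difference was 0.08. Pcsk1, the first convertase to cut the precursor, was not above the dim reference in any tumor. Pam, which amidates peptide ends, was above it in all 8, at 8.79 ± 0.17 (WT) and 8.27 ± 0.34 (cKO; SD, n = 4 each), a difference of −0.52 (SE 0.17) that did not pass (limma adjusted p 0.384). Prcp, which inactivates the hormone, differed by 0.10 (limma adjusted p 0.715). Scg5, a helper of a related convertase, had a difference of 0.15 at a signal not above the dim reference in any tumor.

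Mc1r, the receptor through which agouti acts in skin, had log2 signals of 2.33, 2.49, 2.38 and 2.48 in WT tumors 1 to 4 and of 2.54, 2.60, 2.99 and 2.68 in cKO tumors 1 to 4. The highest WT and the lowest cKO tumor were 0.05 apart, and all 8 values were below the dim reference. The difference was 0.28 (SE 0.11) with a limma adjusted p of 0.463. Mc5r, a receptor of exocrine glands, ran from 3.28 to 3.36 in WT and from 3.35 to 3.78 in cKO. The lowest cKO tumor lay just under the highest WT tumor. It was above the dim reference in no WT tumor and in 3 cKO tumors, and differed by 0.28 (SE 0.10, limma adjusted p 0.439). The receptors known from the brain showed smaller differences. Mc3r differed by 0.02 (SE 0.10), between 3.12 and 3.33 in WT and between 3.09 and 3.41 in cKO, and Mc4r by 0.12 (SE 0.13), between 2.31 and 2.90 in WT and between 2.74 and 2.90 in cKO. Neither was above the dim reference in any tumor, and the groups overlapped in both.

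The accessory genes were above the dim reference in all 8 tumors, and each was lower in cKO by a small difference that did not pass. Atrn had log2 signals of 7.80, 7.57, 7.36 and 7.58 in WT tumors 1 to 4 and of 7.09, 7.50, 7.62 and 7.46 in cKO tumors 1 to 4, a difference of −0.16 (95% confidence interval −0.47 to 0.14). Mean log2 signals of Atrnl1 were 8.01 ± 0.12 (WT) and 7.90 ± 0.18 (cKO; SD, n = 4 each), a difference of −0.11 (interval −0.36 to 0.13). Those of Mgrn1 were 8.05 ± 0.11 (WT) and 7.93 ± 0.15 (cKO; SD, n = 4 each), a difference of −0.13 (interval −0.35 to 0.10). Their limma adjusted p lay at 0.736, 0.776 and 0.714, and in each the cKO tumors overlapped the WT tumors.

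**Figure D2:**
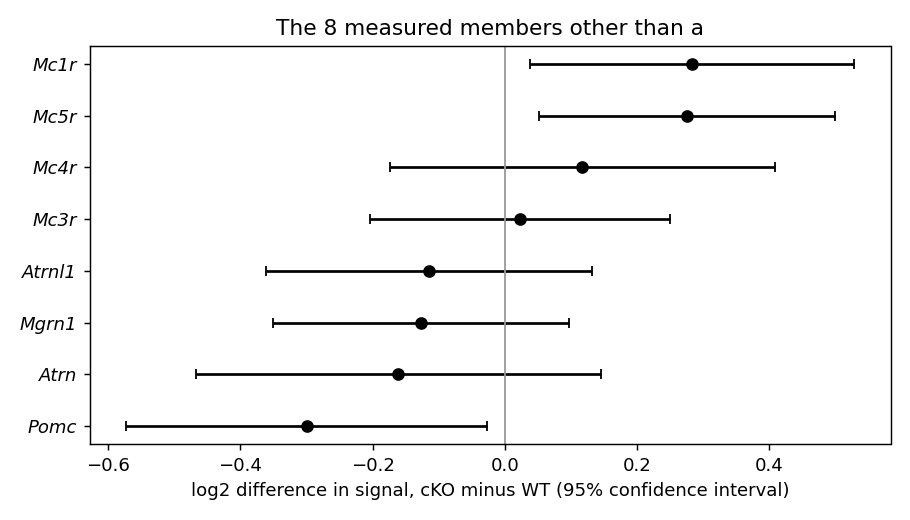
Difference in log2 signal, cKO minus WT (x axis), of the 8 measured members other than a, as points with limma's 95% confidence intervals. Differences run from −0.30 for Pomc to 0.28 for Mc1r.

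Other regulators of the pathway were described from a list of 9 genes, 8 of them measured. None passed, 5 were higher and 3 lower, and the differences lay between −0.10 and 0.13. The adrenal receptor Mc2r, its partner Mrap and the related Mrap2 were not above the dim reference in any tumor, and neither was Corin, a protease that limits agouti in the hair follicle. Tsg101, a target of the Mgrn1 ligase, differed by 0.06 (limma adjusted p 0.839), Mosmo, a partner of Mgrn1 in control of Hedgehog signalling, by −0.10, and Mrap2 by 0.13.

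Melanocortin receptors raise cAMP, and 32 of 35 listed genes of cAMP signalling were measured. None passed, 14 were higher and 18 lower, and the median difference was −0.04. At an unadjusted limma p below 0.05 there were 7 of the 32, against 9.68% of all rows. Creb1 and Pde3b were higher, and Arrb1, Crtc2, Crtc3, Pde4a and Pde4d lower. The groups did not overlap in 3 of the 32, Arrb1, Creb1 and Pde4a, against 5.42% of all rows. Arrb1, a beta-arrestin that ends receptor signalling, was lower in all 4 cKO tumors, between 7.32 and 8.08, than in the 4 WT tumors, between 8.23 and 8.69 (difference −0.62, SE 0.19, limma adjusted p 0.347). Creb1, the transcription factor activated by cAMP, differed by 0.23 (SE 0.08, limma adjusted p 0.442) and its coactivator Crtc3 by −0.36 (SE 0.13, limma adjusted p 0.439).

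The chromosomal neighbours of a were compared because in some mouse lines a is expressed from a neighbour's promoter, as in lethal yellow, where a deletion joins a to the promoter of Raly. The signal of a neighbour's own row does not show from which promoter a is transcribed, and this was not tested. The neighbours are the 4 nearest protein-coding genes on each side on chromosome 2 in RefSeq, all 8 of them measured. None passed the threshold, none separated the groups and none had an unadjusted p below 0.05 in limma. Raly, an RNA-binding protein gene, had log2 signals of 8.46, 8.86, 8.52 and 8.40 in WT tumors 1 to 4 and of 8.61, 8.70, 8.35 and 8.53 in cKO tumors 1 to 4. That is a difference of −0.02 (SE 0.12), beside 3.04 for a. Eif2s2, a translation factor gene between Raly and a, differed by −0.03 (SE 0.09). On the other side Ahcy, which breaks down S-adenosylhomocysteine, differed by 0.34 (SE 0.16, limma adjusted p 0.551), with cKO 3 at 8.03 and the other 3 cKO tumors between 8.72 and 8.78, and by 0.52 without cKO 3. The row used for Ahcy (17330769) is numbered apart from those of the other neighbours, such as 17378300 for Itch. Whether it reads the gene beside a was not tested. Itch, a ubiquitin ligase gene, differed by −0.13, Dynlrb1 by 0.02, Map1lc3a by −0.06, Chmp4b by −0.16 and Zfp341 by 0.15.

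In a wider window of the 50 nearest measured protein-coding genes on each side, chosen after the first values were seen, 59 of 100 were higher in cKO and none passed. Over all rows 56.5% were higher. The groups did not overlap in 5 of the 100, near the share over all rows given above. The 5 were Tpx2, Dsn1, Rbl1, Manbal and Ctnnbl1.

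**Figure D3:**
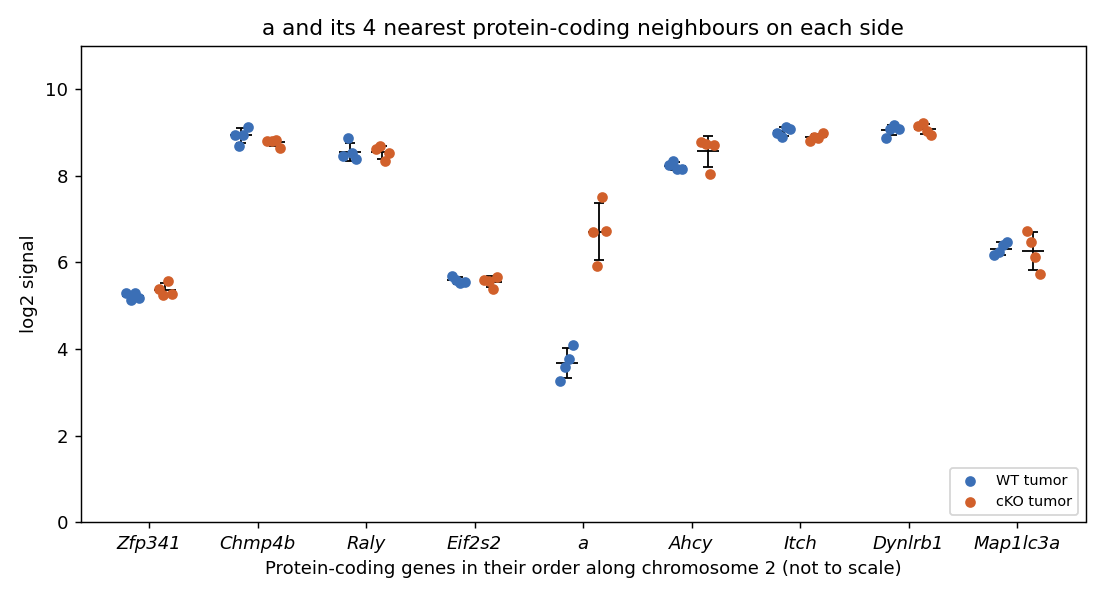
Log2 signal (y axis) of a and its 4 nearest protein-coding neighbours on each side, in chromosomal order, in 4 WT (blue) and 4 cKO (orange) tumors, with points for tumors and bars for the mean ± SD. The groups are apart only at a, and overlap at all 8 neighbours. Whether the row used for Ahcy reads the gene beside a was not tested.

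Genes with a pattern like that of a were ranked by Pearson correlation with it over the 8 tumors, among 9726 genes whose higher group mean was 5 or more. The 4 highest were Manbal (r 0.965), Mms22l (r 0.962), Nmral1 (r 0.959) and Timeless (r 0.958). Since the 8 points fall into 2 groups, these values mostly describe the step between the groups, and they share the arrays and their scaling. The 4 genes were picked for likeness to a, itself picked for its step. They share that step largely by choice, and no test is given for their differences. For deviations from the group means the 4 correlations were 0.769, 0.650, 0.912 and 0.721. The choice by r over the same 8 tumors raises these values too, so they are no separate evidence of likeness. Manbal, also on chromosome 2, moved little, from 6.57 ± 0.05 to 6.74 ± 0.04 (SD, n = 4 each). Mms22l and Timeless, which protect replication forks, differed by 0.54 and 0.75. Nmral1, a sensor of cellular NADPH, differed by 0.85 and, like a, was highest in cKO 3 at 6.91 and lowest in WT 1 at 5.41.

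**Figure D4:**
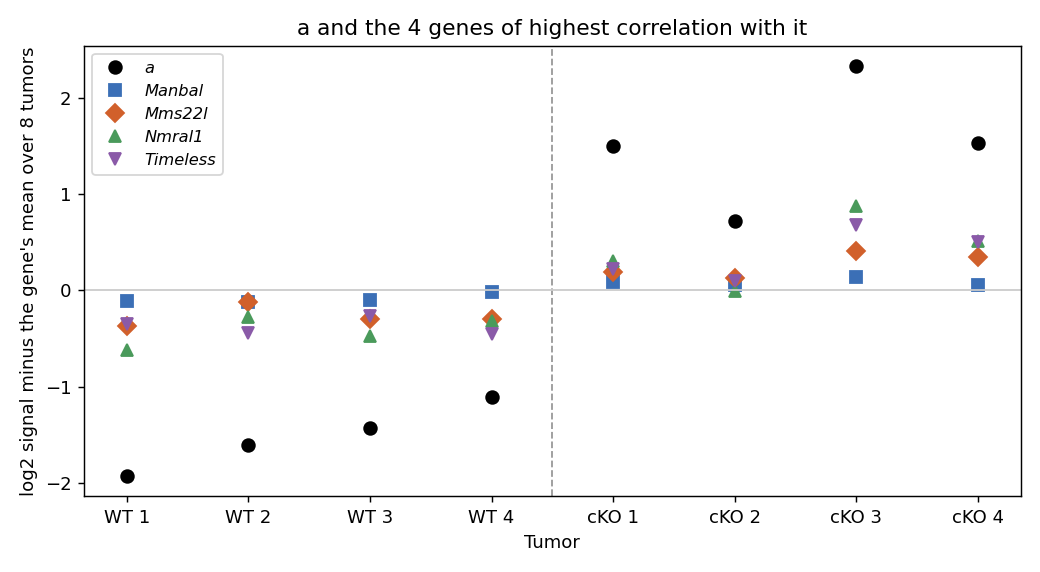
Log2 signal minus each gene's mean over the 8 tumors (y axis) for a and the 4 genes most correlated with it, by tumor (x axis), with WT left and cKO right of the dashed line. All 5 genes are higher in the 4 cKO tumors, largely by choice, as the 4 were picked for likeness to a. The gene a has the widest step, with a difference of 3.04 against 0.85 or less.

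Markers of the cells that make or answer agouti in skin were set beside a. Of 16 pigment cell genes 15 were measured, 7 higher and 8 lower, with differences between −0.33 and 0.14 and none past the threshold. The summed level of this list, as the mean deviation of its genes from their 8-tumor means, lay between −0.01 and 0.05 in WT and between −0.08 and 0.04 in cKO. Of the 15 genes, 6 were above the dim reference in all 8 tumors, namely Pmel, Mitf, Ednrb, Sox10, Kit and Rab38. In no tumor were 7 of the 15 above it, among them the melanin enzyme genes Tyr, Tyrp1 and Dct. Sox10 and Kit, which mammary epithelium also expresses, were above it in all 8 and differed by −0.15 (SE 0.11) and −0.33 (SE 0.25), and Rab38, a melanosome transport gene, by −0.25 (SE 0.13).

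Of 16 genes of the dermal papilla, the hair follicle cells that make agouti, 15 were measured, 10 higher and 5 lower, with a median of 0.03. The summed level lay between −0.17 and 0.06 in WT and between −0.12 and 0.25 in cKO. The papilla genes Corin and Sox2 were not above the dim reference in any tumor. None passed in limma, with Tbx18 at −0.30 (adjusted p 0.430), Prom1 at 0.56 (adjusted p 0.605) and Alx4 at 0.13 (adjusted p 0.618). The Wnt inhibitor gene Wif1, named after its values were seen, had the largest difference of the list, 1.81 (SE 1.07, adjusted p 0.627). It rested on 2 tumors, cKO 3 at 10.5 and cKO 4 at 9.75, while cKO 1 and cKO 2 stood at 6.30 and 5.36 and the WT tumors between 5.32 and 6.90.

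Skin keratinocyte markers had no common direction. Of 12 keratinocyte genes 11 were measured, 5 higher and 6 lower, with summed levels between −0.12 and 0.30 in WT and between −0.09 and 0.06 in cKO. Of the 11, Sbsn was above the dim reference in all 8 tumors and Krt10 in 3 WT and 3 cKO tumors. Krt2, Krt77, Flg, Krtdap and Casp14 were not above it in any tumor. Flg2 differed by −0.18, Krtdap by −0.13 and Dsg1a by −0.45. Dsg1a was above the dim reference in WT 1 alone, at 4.65, and differed by 0.016 without WT 1. Of 10 hair shaft genes 9 were measured, 2 higher and 7 lower, with summed levels between −0.11 and 0.34 in WT and between −0.06 and 0.00422 in cKO. None of either list passed. Msx2 differed by 0.62 (SE 0.24, limma adjusted p 0.474), Krt31 by −0.13 and the hair sheath gene Tchh by −0.59. Tchh was above the dim reference in WT 1 alone, at 4.57. In both lists the highest summed level was that of WT 1, the tumor with the lowest a signal. The next highest was cKO 4 for keratinocyte genes and, for hair shaft genes, cKO 3, the tumor with the highest a signal.

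Fibroblast and fat markers were compared because agouti is made by dermal fibroblasts and, in some species, fat cells. All 9 fibroblast genes were lower in cKO, where 43.5% of all rows were lower, and none passed. At an unadjusted limma p below 0.05 there were 5 of the 9, against 9.68% of all rows. Summed levels lay between 0.10 and 0.62 in WT and between −1.51 and 0.41 in cKO. The lowest was cKO 3, the tumor with the highest a signal. The next lowest was cKO 2 at −0.60, the cKO tumor with the lowest a signal. Col1a1 differed by −1.36 (SE 0.38, limma adjusted p 0.315), Postn by −1.26 (SE 0.41, limma adjusted p 0.379) and the receptor gene Pdgfra by −0.71 (SE 0.23, limma adjusted p 0.384). Without cKO 3 the median difference of this list went from −0.92 to −0.32. Of 10 adipocyte genes 9 were measured, 4 higher and 5 lower, with summed levels between −0.04 and 0.06 in WT and between −0.30 and 0.19 in cKO. Adipoq differed by 0.22, Retn by 0.16 and Lipe by −0.14, none past the threshold. All 7 mammary epithelial genes were lower, by a median of −0.21, with summed levels between −0.17 and 0.51 in WT and between −0.42 and 0.22 in cKO. Krt19 differed by −1.15 (SE 0.42, limma adjusted p 0.446), Cdh1 by −0.21 and Elf5 by −0.24. The part of fibroblast and epithelial content in the difference of a was not tested.

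Across the 10 lists, which hold 120 measured genes, none passed the threshold in limma. An unadjusted limma p below 0.05 was found for 16 genes (13.3%), where all rows gave 9.68%. Of the 16, 7 were cAMP signalling genes and 5 were fibroblast genes. The groups did not overlap in 7 of the 120 (5.83%), where all rows gave 5.42%.

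**Figure D5:**
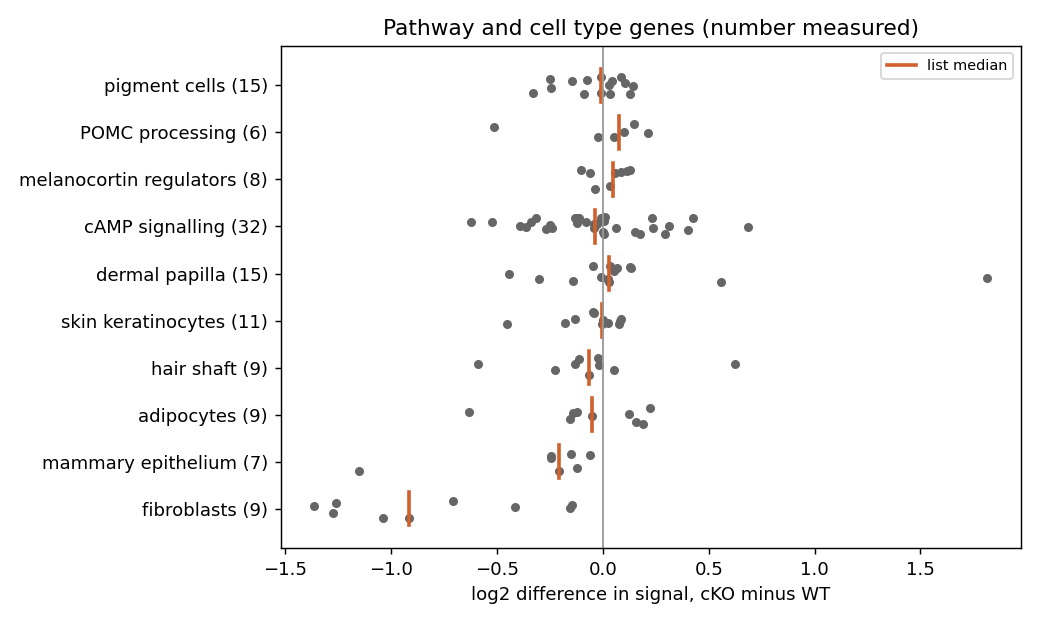
Difference in log2 signal, cKO minus WT (x axis), of the measured genes of 10 pathway and cell type lists (y axis, number measured in parentheses), with a point per gene and an orange line at the list median. Fibroblast genes lie lowest with a median of −0.92, and the other lists have medians between −0.21 and 0.08.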

How the data were processed

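Per the labels' protocols, total RNA was taken from frozen tumors and labelled for Affymetrix arrays. The deposited values are log2 signals, and RMA and limma are named in the submitters' processing notes, with no versions or parameters given in the sources used here. Of 41345 rows, 23521 had 1 gene symbol, and 23328 of these took their symbol by gene identifier from RefSeq (GRCm38.p6). The row with the highest mean stood for a gene with several rows.

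For cKO minus WT, all 23521 rows were fitted without covariates by lmFit and eBayes of limma 3.58.1 (R 4.3.3), two-sided, with Benjamini-Hochberg adjustment over all rows and a threshold of 0.05. The fit was tested on simulated data with rows drawn independently of each other, a setting that leaves out correlation between genes of a tumor. The members and lists were chosen with earlier results of these data known. The named genes were the members, Mmp14, up to 3 genes per list with the smallest p, the 4 nearest protein-coding neighbours of a per side and the 4 genes most correlated with a, leaving out predicted loci, small RNAs and odorant receptors. The number of arrays limits precision. The labels call the tumors biological replicates and do not say which came from separate mice, so the p-values measure only the spread between these samples. Alternatives were other scalings, a filter on dim rows, other variance settings, blocks and leaving out each tumor. Averaging a gene's rows changed nothing for the members, which have 1 row each.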

Additional observations from a re-analysis of the deposited data

Results flagged for a closer look

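Of 104 groups of 4 tumors examined over the named genes, 4 had a tumor far from the other 3, where chance gives about 1 in 20. WT 1 stood at 4.57 for Tchh, with the others between 2.04 and 2.29, and at 8.69 for Arrb1, with the others between 8.23 and 8.27. In cKO tumors, Ahcy was at 8.03 in cKO 3, and Chmp4b at 8.64 in cKO 4 with the others between 8.81 and 8.82. None of these groups belonged to a melanocortin gene.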

How the results depend on the processing

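None of the 8 members tested passed the threshold under any of the 15 alternatives to the settings of the report, and no list gene did. The gene a was not tested. The difference of a lay between 2.77 and 3.30 without 1 tumor each, and this was also its range over all 13 alternatives computed for it. Both blocks are balanced between the groups, so they cannot change a difference, only its error. The filter on dim rows cannot change it either, and the difference of a was 3.04 under these settings by construction. With the number of the labels as a replicate block no row passed over all rows, where 2 passed without it. With the array block 1 row passed, and without 1 tumor between 0 and 3 rows did (0 when WT 1, WT 2, WT 3, WT 4 or cKO 4 was left out, 1 for cKO 2, 2 for cKO 1 and 3 for cKO 3). Whether the replicate numbers pair the tumors is not said in the labels, and the following correlations cannot exclude a pairing. Deviations of same-numbered tumors from their group means correlated between −0.24 and 0.29, and 1 of the 4 WT tumors correlated best with its own number. Mmp14 differed by −1.40 under both blocks, past the threshold under neither, and by −1.48 to −1.30 without 1 tumor. Small differences changed sign in places, and the cause was not tested. Leaving out 1 tumor gave −0.029 to 0.078 for Mc3r, −0.013 to 0.18 for Mc4r, −0.065 to 0.029 for Eif2s2, −0.070 to 0.086 for Raly, −0.036 to 0.070 for Dynlrb1, −0.21 to 0.12 for Map1lc3a, −0.77 to 0.016 for Dsg1a and −0.83 to 0.015 for Tchh. Quantile normalization gave 0.0029 for Eif2s2, and array weights gave 0.010 for Raly. The filter on dim rows, a mean of at least 4, left out Pomc and the receptors, for which that setting has no value.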
